A study of Mus musculus with 15 samples.

Results

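Liver RNA of old control mice was compared with liver RNA of young control mice. The comparison takes 10 of the series' 15 RNA sequencing libraries, the 5 labelled as young controls and the 5 labelled as aged controls, and 12168 of the 55849 gene rows in the table, those averaging 1 TPM or more across the 15 libraries. TPM is each gene's share of a library's transcripts, corrected for transcript length and scaled to the same total in every library. The other 5 libraries came from mice given KSL0608-Se and irradiation, a compound known only by this code name and light, and the series describes removal of senescent cells. They shared the estimate of spread, and their values stand beside some results as the treated livers. Each library is labelled with its tissue, its group and a number within the group. The labels give no genotype, strain, sex, dose or age in weeks, and no age for the treated mice, so the labels state nothing that all groups share beyond the tissue. Nothing in the labels says that the libraries came from separate animals, so a p-value here refers to the spread from library to library, and that spread may be technical in part.

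The adult mouse liver consists mainly of hepatocytes, which secrete plasma proteins and carry out drug, steroid, lipid and bile acid metabolism, together with endothelial, stellate, bile duct and Kupffer cells and passing lymphocytes. Many hepatocyte genes differ between male and female mice, and that pattern is set largely by the timing of growth hormone pulses, which act through the transcription factor STAT5B. Ageing liver in mice is known for gains of lymphocytes and macrophages, for lipid storage and for cells that express the cell-cycle inhibitor p16.

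All 10 libraries carried the marks of liver, with the albumin gene Alb between 43300.3 and 90425.9 TPM. Xist, which is expressed from the inactive X chromosome, stood between 7.39 and 28.1 TPM in these libraries, while Ddx3y, Eif2s3y, Kdm5d and Uty, which lie on the Y chromosome, reached at most 0.05 TPM. Young and aged libraries alike thus had the expression pattern of female mice, though the labels give no sex. Between 17847 and 18776 genes had a value above 0 in a young library and between 18310 and 19868 in an aged library. Aged 5 stood apart through high lymphocyte, cell-cycle and antibody genes, and young 4 as the lowest young library in the mean of most gene lists. These libraries had the lowest median correlation with the rest of their own groups, 0.935 and 0.923. TPM keeps no sequencing depth, so depth is unknown.

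Of the 12168 genes, 132 (1.08%) differed between aged and young livers at a limma adjusted p under 0.05, and these are called. Of them 113 (0.929%) rose and 19 (0.156%) fell. All differences below are aged minus young on the log2(TPM + 1) scale with a standard error (SE), where a difference of 1 is a doubling for abundant genes and understates the change of scarce ones. The median difference was 1.72 over the genes that rose and −1.35 over those that fell, beside 0.05 over all genes tested. Over all genes, the aged mean was higher for 59.2% and lower for 40.4%, and the unadjusted p was under 0.05 for 8.72%, which is the background for the counts over gene lists below. A gene that is scarce in young liver reached the limit of 1 TPM only through the aged or treated libraries, so counts of higher means in lists of such genes are partly set by that limit. For 411 genes (3.38%) no aged library overlapped any young one, with the aged libraries above the young in 341 (2.8%) and below in 70 (0.575%). Of the 132 called genes, 123 did not overlap and 9 did. Of the 113 that rose, 46 had a young mean under 1 TPM. The balance of calls moved with the scaling of the libraries: quantile normalization gave 78 rises and 41 falls, and median-ratio scaling gave 96 rises and 33 falls. Without young 4, 112 rose and 50 fell. In all, 70 of the 132 kept their call in each of the 15 leave-one-out fits, which drop 1 library at a time.

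**Figure D1:**
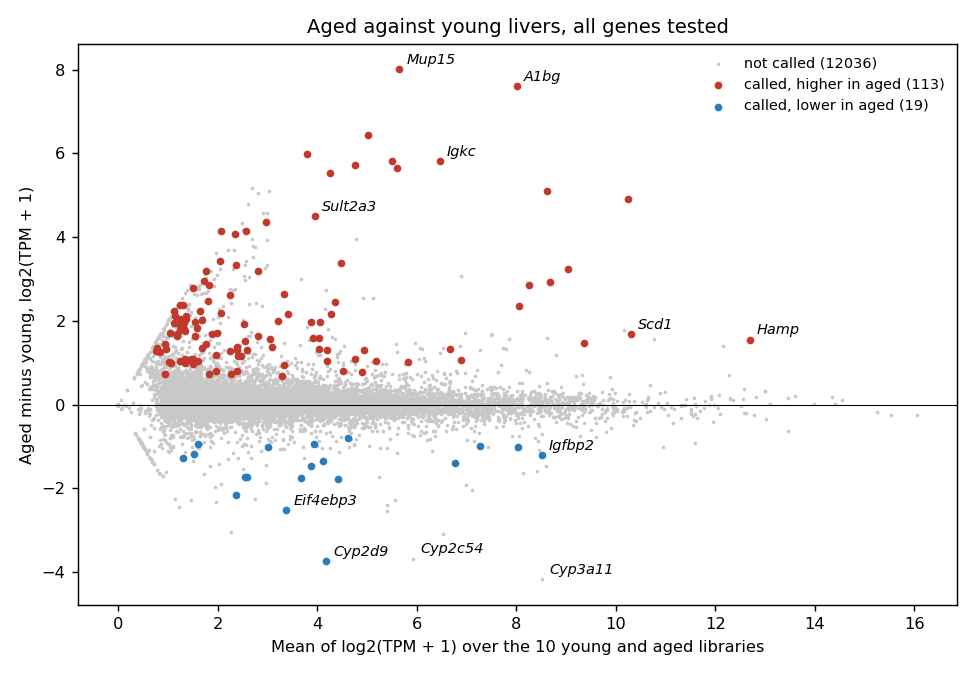
Each point is 1 of the 12168 genes tested, with the mean of log2(TPM + 1) over the 10 young and aged libraries on the x axis and the aged minus young difference on the y axis. Red points mark the 113 genes called higher, blue points the 19 called lower and grey points the rest. The largest rises lie far above the cloud, while Cyp3a11 and Cyp2c54 lie far below it without being called.

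Liver genes with a female bias gave the most rises of any of 55 gene lists. Of 38 tested genes that are higher in female than in male mouse liver, 12 rose and 1 fell, where 0.929% and 0.156% of all genes did, with a median difference of 0.53. The list was drawn up with earlier results of these data known. Its Cyp3a and Sult2a members are similar copies that can share reads, so this count is not independent evidence. A1bg, which encodes a secreted plasma glycoprotein, stood at 36.6, 32.2, 15.5, 8.22 and 10.3 TPM in young 1 to 5 and at 5770.2, 1712, 5153, 4418 and 2722 TPM in aged 1 to 5. Values of libraries are listed in the order of replicate numbers throughout, and these numbers are used here only as names. The lowest aged library was far above the highest young one (difference 7.61, SE 0.42, adjusted p = 1.45e-07), and the treated libraries lay between 1930.7 and 4083.8 TPM.

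The Cyp3a genes encode cytochromes P450 that oxidise steroids and drugs, and in mice Cyp3a16, Cyp3a41a, Cyp3a41b and Cyp3a44 have a female bias. All 4 rose. The 300 bases from 250 before to 50 after the start of each of the 4 genes are shown because these neighbouring paralogs moved together. The windows are RefSeq sequence on GRCm38.p6, an older build than the GRCm39 of the deposited values, written 5′ to 3′ on the minus strand, at chr5:145469674-145469973 for Cyp3a16, chr5:145720087-145720386 for Cyp3a41a, chr5:145584681-145584980 for Cyp3a41b and chr5:145805825-145806124 for Cyp3a44. Capitals mark the longest run that all 4 windows share, 55 bases.
Cyp3a16: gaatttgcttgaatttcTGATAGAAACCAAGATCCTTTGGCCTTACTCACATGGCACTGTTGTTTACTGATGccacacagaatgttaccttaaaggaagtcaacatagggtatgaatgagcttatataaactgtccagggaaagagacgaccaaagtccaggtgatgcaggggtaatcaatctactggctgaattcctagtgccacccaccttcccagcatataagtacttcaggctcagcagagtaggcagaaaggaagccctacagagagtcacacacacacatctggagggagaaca
Cyp3a41a: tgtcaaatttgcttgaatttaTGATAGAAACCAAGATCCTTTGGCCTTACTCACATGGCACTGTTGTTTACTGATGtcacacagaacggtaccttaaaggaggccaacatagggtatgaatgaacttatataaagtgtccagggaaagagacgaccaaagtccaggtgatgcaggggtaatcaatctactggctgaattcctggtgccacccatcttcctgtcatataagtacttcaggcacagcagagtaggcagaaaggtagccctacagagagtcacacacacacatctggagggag
Cyp3a41b: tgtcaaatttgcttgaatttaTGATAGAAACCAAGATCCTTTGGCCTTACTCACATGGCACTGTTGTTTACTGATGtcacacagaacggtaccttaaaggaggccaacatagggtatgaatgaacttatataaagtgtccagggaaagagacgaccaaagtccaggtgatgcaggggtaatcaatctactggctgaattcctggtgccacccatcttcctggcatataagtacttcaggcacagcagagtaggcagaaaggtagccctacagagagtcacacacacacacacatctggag
Cyp3a44: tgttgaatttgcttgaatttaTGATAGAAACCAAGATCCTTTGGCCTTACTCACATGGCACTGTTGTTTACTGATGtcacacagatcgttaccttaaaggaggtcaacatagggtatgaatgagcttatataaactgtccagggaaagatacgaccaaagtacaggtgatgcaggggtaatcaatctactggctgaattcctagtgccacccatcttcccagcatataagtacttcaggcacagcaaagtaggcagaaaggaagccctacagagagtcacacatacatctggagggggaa
Aligned without gaps at the best offset of up to 20 bases, the 4 windows were 92.0% to 97.3% identical in pairs. The windows of Cyp3a11, Cyp3a25 and Cyp3a13 were 31.3% to 43.1% identical with these or with each other. Cyp3a44 stood at 3.33, 10.98, 5.47, 14.1 and 1.97 TPM in young and 376, 177, 434, 516 and 316 TPM in aged libraries (difference 5.65, SE 0.39, adjusted p = 7.72e-07). Cyp3a16, a form of fetal and neonatal liver as well, stood at 0.69, 3.34, 0.36, 6.75 and 1.23 TPM in young and 184, 75.1, 138, 226 and 84.6 TPM in aged libraries (difference 5.54, SE 0.45, adjusted p = 4.53e-06). In both genes each aged library exceeded each young one by a wide margin. Cyp3a41b was more abundant, at 79.7, 302, 97.95, 1135 and 51.9 TPM in young and 1728, 1614, 1298, 2585 and 1196 TPM in aged libraries (difference 3.25, SE 0.66, adjusted p = 0.0301), and Cyp3a41a stood at 63.2, 255, 87.5, 370.4 and 34.05 TPM in young and 848, 689, 756, 1346 and 614 TPM in aged libraries (difference 2.85, adjusted p = 0.0134). Young 4 was the highest young library for all 4 genes, and in Cyp3a41b it came close to the lowest aged one. How reads were divided between these paralogs is uncertain. The Cyp3a41b call ended in 8 of the 15 leave-one-out fits (adjusted p up to 0.0893 without young 3), and both Cyp3a41 calls ended in the fit of young and aged libraries alone.

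Of 9 Cyp3a genes tested, these 4 rose and none fell at the threshold, with a median difference of 0.43. Cyp3a11, the main xenobiotic-metabolising Cyp3a of mouse liver, had the opposite sign without passing. It stood at 1986, 1916, 1194, 1863 and 1074 TPM in young and 19.3, 206, 169, 55.9 and 116 TPM in aged libraries, which did not overlap (difference −4.18, SE 1.12, adjusted p = 0.125). In the treated group it ranged from 0.9 TPM in treated 1 to 228.8 in treated 3, and in the fit of young and aged libraries alone the adjusted p was 0.0075. Of the others that did not pass, Cyp3a25 was at 159.6 ± 43.9 TPM in young and 201 ± 30 in aged livers and Cyp3a13 was at 101 ± 35.9 and 83.3 ± 16.04 (SD, n = 5).

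The Sult2a genes encode hydroxysteroid sulfotransferases, which add sulfate to steroids and bile acids and are female-biased in mouse liver. Of 7 tested genes and pseudogenes, 5 rose, none fell and the median difference was 2.35. Sult2a3 stood at 0.69, 2.07, 2.04, 2.08 and 6.53 TPM in young and 61.7, 65.8, 77.1, 122 and 54.2 TPM in aged libraries (difference 4.51, SE 0.30, adjusted p = 2.55e-07). Sult2a1 stood at 72.1, 110.3, 41.8, 237 and 276 TPM in young and 619.7, 627, 544, 804 and 469 TPM in aged libraries (difference 2.35, adjusted p = 0.00664), and Sult2a2 at 253, 367, 244, 716 and 562 TPM in young and 929, 1196, 1153, 1333 and 895 TPM in aged libraries (difference 1.48, adjusted p = 0.00519). In none of the 3 genes did an aged library reach down into the young range. Sult2a5 rose by 2.65 and the pseudogene Sult2a-ps1 by 1.63, the latter call ending in 6 leave-one-out fits (up to 0.0749 without young 3). Sult2a7 was at 4.31 ± 3.26 in young and 43.3 ± 28.6 TPM in aged livers and missed the threshold (adjusted p = 0.188), as did Sult2a8 with the opposite sign (difference −1.15, 97.2 ± 68.9 and 34.3 ± 14.6 TPM). Reads shared between these copies make the value of each uncertain.

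The other female-biased genes that rose did so by less. Prom1, which encodes a membrane protein of progenitor and epithelial cells, rose by 1.28, Hao2, a peroxisomal hydroxyacid oxidase gene, by 1.09, and Cyp2b10, a drug-inducible P450 gene, by 1.04. These calls ended in 11, 6 and 12 of the 15 leave-one-out fits (adjusted p up to 0.14, 0.0801 and 0.148 without young 3, aged 4 and young 3, respectively). Rdh9, a retinol dehydrogenase gene also listed as female-biased, fell from 31.2, 42.04, 46.3, 25.7 and 54.3 TPM to 11.9, 12, 8.71, 8.68 and 12.4 TPM (difference −1.77, SE 0.22, adjusted p = 0.000226). Cyp2b13 was lower without passing, at 230.2, 212.5, 245, 255 and 459 TPM in young and 4.96, 98.4, 30.03, 19.5 and 81.2 TPM in aged libraries (adjusted p = 0.156). The list thus held calls in both directions. Of 26 tested male-biased genes, Mup17 and Mup1 rose, Cyp2d9 and Egfr fell and the median was 0.02. Cyp2d9, a steroid 16-alpha-hydroxylase gene typical of male liver, fell from 82.2, 55.8, 74.1, 35.01 and 96.8 TPM to 3.56, 3.46, 5.67, 2.57 and 4.92 TPM (difference −3.75, SE 0.33, adjusted p = 4.53e-06). The organic anion transporter gene Slco1a1, likewise male-biased, stood at 5.91, 7.92, 1.42, 1.64 and 0.08 TPM in young and 0.02, 0.05, 0.01, 0.03 and 0.02 TPM in aged libraries without passing (adjusted p = 0.0709).

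Major urinary proteins are small secreted lipocalins that carry pheromones, made in bulk by the liver from a cluster of near-identical genes. Mup genes, counted without the Mup-ps pseudogenes, held 0.472 ± 0.283% of TPM in young livers and 2.09 ± 1.06% in aged livers (SD, n = 5). Every aged library exceeded every young one, and a two-sided exact permutation test of 5 against 5 gave p = 0.00794, the smallest it can give with these numbers (0.0278 adjusted over 7 library measures). The share sums genes that are also called singly below, so this p is no separate evidence for them. Of 26 tested Mup genes and pseudogenes, 9 rose and none fell, 24 had a higher mean, and the median difference was 1.99. Mup15 stood at 1.46, 3.37, 3.85, 3.15 and 0.37 TPM in young and 2199, 825, 203, 963 and 928 TPM in aged libraries (difference 8.01, SE 0.82, adjusted p = 0.000185). Mup13 was the most abundant of those that rose, at 231, 541, 395, 179.6 and 59.03 TPM in young and 15318, 5185, 3728, 6299 and 7012 TPM in aged libraries (difference 4.91, adjusted p = 0.00208). Mup19 rose by 5.10, Mup17 by 6.43, Mup1 by 4.35, Mup9 by 2.92, and the pseudogenes Mup-ps12 and Mup-ps13 by 2.48 and 2.01. Mup8 also rose, with overlapping groups (adjusted p = 0.0496). Aged 1 was the highest and aged 3 the lowest aged library for Mup15, Mup17, Mup19 and Mup13. Treated 1 lay above all other libraries for the same 4 genes, with Mup13 at 50869.9 TPM. Mup20, which encodes darcin, the male pheromone protein of mice, had the opposite sign and did not pass, at 127, 93.6, 37.5, 74.9 and 41.9 TPM in young and 10.7, 36.2, 12.1, 24.3 and 24.8 TPM in aged libraries (difference −1.74, adjusted p = 0.136). The Mup8 call ended in 12 leave-one-out fits (up to 0.127 without young 1), that of Mup-ps12 in 7 (up to 0.0882 without young 3) and that of Mup-ps13 in 4 (up to 0.0619 without young 3). The Mup1 and Mup9 calls each ended in 7 of the 15 leave-one-out fits (adjusted p up to 0.063 and 0.0819 without young 3 and aged 1, respectively). How reads were divided between Mup copies is uncertain, so the summed share is the firmer value.

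**Figure D2:**
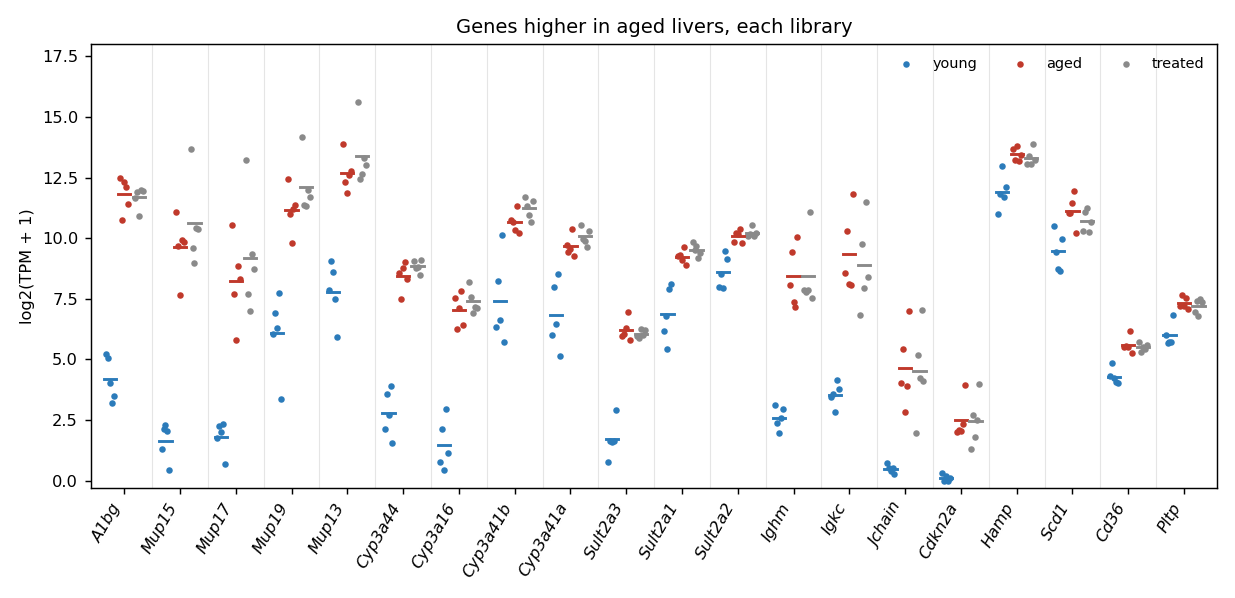
Levels of 20 genes called higher in aged livers, on the log2(TPM + 1) scale, with 1 point per library and a bar at the mean of each group of 5. Blue points are young, red points aged and grey points treated livers. Aged and treated libraries lie above the young ones for A1bg, Cyp3a44 and Sult2a3, and the groups come closest for Cyp3a41b and Scd1.

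Antibody genes were scarce in young livers, and their summed share was higher in every aged library. Immunoglobulin genes held 0.00694 ± 0.00132% of TPM in young and 0.481 ± 0.545% in aged livers (SD, n = 5; two-sided exact permutation p = 0.00794, the smallest possible, 0.0278 adjusted), with aged 5 at 1.4% and the other aged libraries at 0.128% to 0.569%. The share includes Ighm, Igkc and the variable segments, so this p is no separate evidence for them. Ighm, the heavy-chain constant region of IgM, stood at 7.65, 4.25, 2.87, 4.91 and 6.8 TPM in young and 269, 695, 165, 144 and 1054 TPM in aged libraries (difference 5.83, SE 0.70, adjusted p = 0.000673). Igkc, the kappa light-chain constant region, stood at 9.92, 10.9, 6.11, 16.6 and 12.5 TPM in young and 378, 1241, 272, 264 and 3654 TPM in aged libraries (difference 5.82, adjusted p = 0.00413). The lowest aged library exceeded the highest young one in both genes. Jchain, which links the units of secreted IgM and IgA, stood at 0.67, 0.44, 0.3, 0.44 and 0.22 TPM in young and 15.2, 41.99, 6.02, 14.1 and 127 TPM in aged libraries (difference 4.14, adjusted p = 0.0352), and this call ended in 12 of the 15 leave-one-out fits (adjusted p up to 0.0899 without young 3). In a bulk sample, more cells of a type and more RNA per cell cannot be told apart.

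The classes of antibody differed between aged libraries. Ighm made up 92.8%, 81.5%, 85.7%, 63.6% and 41.0% of the summed TPM of 8 heavy-chain constant genes in aged 1 to 5. Ighg1, the constant region of IgG1, was at 1042.1 TPM in aged 5, nearly level with Ighm there, at 58.2 TPM in aged 4 and at 0.54 TPM in aged 1. Ighg2b stood at 12.5, 62.2, 2.8, 11.4 and 202 TPM in aged and 0.54 to 1.04 TPM in young libraries (adjusted p = 0.129). Igha, the IgA constant region, reached 47.9 TPM in aged 5 and made up 1.24% to 3.32% of the heavy-chain sum in aged livers. The IgM constant gene thus led in aged 1 to 4, while aged 5 held a mixture with IgG1.

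Variable segments are the interchangeable parts of antibody genes that form the antigen-binding site. More of them had a value above 0 in aged than in young libraries. Of 127 tested segments, 8 were called higher and none lower. As 117 of the 127 had a young mean under 1 TPM and so were tested only because of the aged or treated libraries, the counts over the tested segments show nothing beyond that. Over all kappa segments in the table, tested or not, 21 to 36 had a value above 0 in a young library and 63 to 89 in an aged one. For heavy-chain segments the ranges were 8 to 32 and 53 to 83. The leading segment differed from library to library. Igkv5-39 held 47.9% of all kappa-segment TPM in aged 3, at 299.8 TPM, and Igkv3-2 held 24.0% in aged 2 and 16.9% in aged 5. Igkv1-117 led with 21.3% in aged 1 and Igkv4-68 with 20.1% in aged 4. In young libraries the leading kappa segment held 9.04% to 24.6% of sums that were far smaller, 17.4 to 36.4 TPM against 508 to 5264.5 in aged libraries. Segments are short and alike, so single assignments are uncertain.

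Other lymphocyte genes were higher in some aged libraries. Of 24 tested B cell and plasma cell markers, 3 rose (Ighm, Igkc and Jchain) and the median difference was 1.69, with 15 of the 24 under 1 TPM in young mean. Cd79a, a chain of the B cell receptor, stood at 0.99, 0.69, 0.7, 0.8 and 1.6 TPM in young and 1.13, 13.8, 3.63, 3.21 and 60.6 TPM in aged libraries (adjusted p = 0.386). Its high values were in aged 2 and aged 5, and aged 1 lay within the young range. Of 20 T cell and NK cell markers, Zap70 alone rose and the median was 0.83, with 10 of the 20 under 1 TPM in young mean. Zap70, the kinase that passes on the T cell receptor's signal, stood at 6.28, 5.56, 6.01, 8.66 and 5.07 TPM in young and 14.4, 13.2, 11.8, 9.23 and 17.3 TPM in aged libraries without overlap (difference 0.95, SE 0.18, adjusted p = 0.0135). That call ended under quantile normalization, under median-ratio scaling and with the replicate number as a block (limma adjusted p up to 0.081 over the alternatives tried). Zap70 did not follow its list in every library. Aged 1 had 14.4 TPM of Zap70, but its mean level over the T and NK cell list was 1.19, beside 1.02 to 1.18 in young libraries. Ccl5, a chemokine gene of T and NK cells, stood at 6.85, 4.38, 8.15, 9.96 and 7.21 TPM in young and 12.1, 68.4, 29.5, 14.1 and 225 TPM in aged libraries without overlap and did not pass (adjusted p = 0.38). Ltb, a gene of lymphoid aggregates, was at 1.58, 1.24, 1.96, 1.5 and 1.52 TPM in young and 1.12, 6.46, 3.36, 1.97 and 32.1 TPM in aged libraries (adjusted p = 0.598), with aged 5 far above the others and aged 1 below all young libraries. Without aged 5 the median of the B cell list was 0.94, that of the T and NK cell list 0.44 and that of the MHC class II list 0.75. Among 12 MHC class II presentation genes (median 1.15, 4 of them under 1 TPM in young mean) none passed, though 11 had an unadjusted limma p under 0.05. Cd74, the invariant chain gene, stood at 123, 76.6, 221, 82.2 and 231 TPM in young and 195, 369.9, 271, 214 and 1019 TPM in aged libraries (adjusted p = 0.376). The groups overlapped there, since aged 1 and aged 4 lay within the young range.

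**Figure D3:**
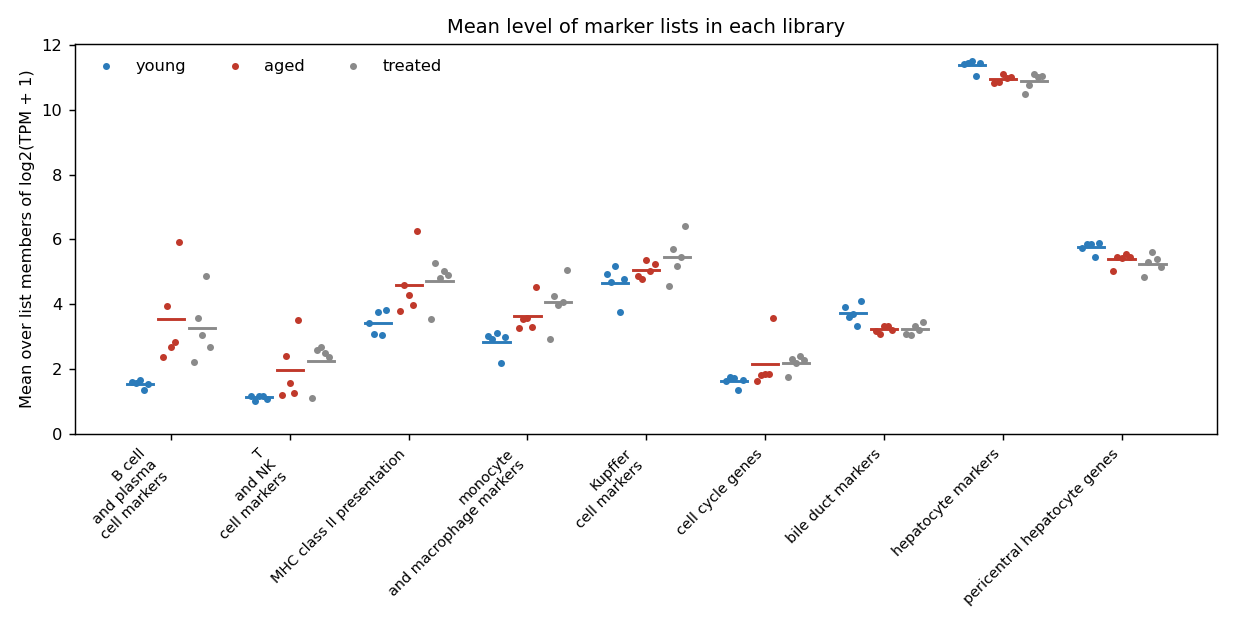
Mean of log2(TPM + 1) over the tested members of 9 gene lists in each library, with 1 point per library and a bar at each group's mean. Blue points are young, red aged and grey treated livers. Aged 5 is the highest aged library for B cell, T and NK cell, MHC class II and cell cycle genes, while the hepatocyte means of the young libraries (11.1 to 11.5) lie above those of the aged (10.8 to 11.1) except in young 4.

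Most macrophage genes were higher in mean, with few calls. Each of the 27 tested markers of monocytes and macrophages was higher in mean, 5 of them under 1 TPM in young mean, with a median of 0.73 (0.53 without aged 5), and none passed, though 11 had an unadjusted limma p under 0.05. Lyz2, the myeloid lysozyme gene, stood at 104, 90.6, 74.04, 35.5 and 60.2 TPM in young and 167, 205, 200.4, 158 and 561 TPM in aged libraries without overlap (difference 1.72, adjusted p = 0.103). Of 21 genes of lipid-associated macrophages, Trem2 and Cd36 rose, with a list median of 0.45. Cd36 is counted in a lipid metabolism list below as well. Trem2, a lipid-sensing receptor of macrophages, stood at 0.57, 1.93, 1.2, 0.23 and 1.85 TPM in young and 7.04, 4.19, 4.08, 5.34 and 3 TPM in aged libraries (difference 1.45, SE 0.28, adjusted p = 0.0154, and 0.0521 without young 1). The treated libraries had Trem2 at 5.7, 7.43, 5.25, 10.9 and 12.9 TPM. Kupffer cell markers were mixed, with 16 of 19 higher in mean, a median of 0.51 (0.29 without young 4) and no call, 5 having an unadjusted p under 0.05. Their list mean was lowest in young 4, at 3.77, with 4.68 to 5.19 among the remaining young libraries and 4.78 to 5.37 among the aged ones. Clec4f, specific to Kupffer cells, stood at 101, 74.4, 97.8, 62.02 and 86.1 TPM in young and 108, 105, 155, 108 and 147 TPM in aged libraries, and did not overlap (adjusted p = 0.543), while the scavenger receptor gene Cd163 had the opposite sign, at 7.05, 7.77, 8.86, 1.94 and 5.22 TPM in young and 1.17, 0.36, 3.05, 4.28 and 0.52 TPM in aged libraries (difference −1.41, adjusted p = 0.103). Cd207, which encodes langerin, a lectin of Langerhans and some dendritic cells, rose from 3.27 ± 1.89 to 11.8 ± 4.7 TPM (difference 1.63, adjusted p = 0.0311), a call that ended in 8 of the 15 leave-one-out fits (adjusted p up to 0.0915 without young 1). None of 8 neutrophil markers, 45 interferon-stimulated genes or 17 chemokine genes passed, with medians of 0.33, 0.02 and 0.59 and with 1, 1 and 5 genes at an unadjusted limma p under 0.05. Without aged 5 the neutrophil median was 0.15. Raet1e, a ligand of the NK cell receptor NKG2D, rose from 4.63, 3.94, 2.68, 3.87 and 5.52 TPM to 12.2, 24.3, 21.6, 24.8 and 30.01 TPM (difference 2.17, SE 0.39, adjusted p = 0.00858), with no aged library in the young range. Serpinb1a, an inhibitor of neutrophil proteases, rose from 6.45, 11.9, 6.42, 9.25 and 6.11 TPM to 33.1, 64.6, 68.4, 42.98 and 36.95 TPM (difference 2.46, adjusted p = 0.0155, and 0.053 without young 3).

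Cdkn2a, which encodes p16 and the tumour suppressor Arf, rose among the markers of senescence. It stood at 0.23, 0, 0.14, 0 and 0.08 TPM in young and 2.97, 3.27, 3.18, 4.01 and 14.6 TPM in aged libraries (difference 2.37, SE 0.44, adjusted p = 0.0114). Aged 1 to 4 lay close together and aged 5 far above them. Treated livers had 1.47, 5.49, 2.47, 4.63 and 14.8 TPM. With a pseudocount of 5 TPM the call was lost (difference 0.96, adjusted p = 0.229). Of 17 markers expected to rise with senescence, Cdkn2a alone was called, with 14 higher in mean and a median of 0.29 (0.16 without aged 5 and 0.14 without young 4). Cdkn1a, another cell-cycle inhibitor gene, stood at 24.4, 58.6, 52.8, 12.2 and 32.4 TPM in young and 30.3, 17.6, 19.6, 20.8 and 12.3 TPM in aged libraries and did not pass (difference −0.67, adjusted p = 0.755). Glb1, the lysosomal galactosidase gene, was at 10.2 ± 2.61 and 10.6 ± 1.27 TPM and Lmnb1, a lamina gene, at 2.37 ± 0.81 and 5.03 ± 4.6 TPM (SD, n = 5). Neither passed, and aged 5 was the highest aged library for Lmnb1, at 13.2 TPM. Of 36 cell cycle genes 21 were tested, 8 of them under 1 TPM in young mean, with a median of 0.44 (0.11 without aged 5), and none passed, with 6 at an unadjusted limma p under 0.05. Their mean level over the list was 3.57 in aged 5, while aged 1 to 4 lay between 1.64 and 1.86 and the young libraries between 1.34 and 1.75. Gadd45a, a DNA damage response gene, rose by 1.17 (adjusted p = 0.0263), from 1.64 ± 0.542 to 4.97 ± 1.41 TPM, and this call ended in 6 of the 15 leave-one-out fits (adjusted p up to 0.0798 without aged 4). None of the 18 tested genes in the p53 target list passed, with 3 at an unadjusted p under 0.05. Gadd45a was not in that list, so this count does not cover it.

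Of 30 genes in the fatty acid and triglyceride synthesis list Scd1 and Cd36 rose, of 39 fatty acid oxidation genes none and of 30 apolipoprotein and lipoprotein genes Pltp. Cd36 acts in uptake rather than synthesis, and its call is also counted in the list of lipid-associated macrophages. Scd1, the desaturase that makes monounsaturated fatty acids, stood at 1454, 693, 426, 402 and 993 TPM in young and 2126, 2101, 2796, 3962 and 1181 TPM in aged libraries (difference 1.68, SE 0.37, adjusted p = 0.0381). Aged 5 lay below young 1, so the groups overlapped, and the call ended in 9 of the 15 leave-one-out fits (adjusted p up to 0.111 without young 3). Cd36, a fatty acid uptake receptor gene, stood at 19.1, 27.5, 17.6, 15.6 and 15.2 TPM in young and 44.02, 45.7, 44.97, 71.5 and 36.9 TPM in aged libraries without overlap (difference 1.31, SE 0.19, adjusted p = 0.00101). Fitm1, which acts in lipid droplet formation, rose from 8.66 ± 2.55 to 28.9 ± 11.9 TPM (difference 1.59, adjusted p = 0.0163, and 0.0561 without young 1). The median of the synthesis list was 0.18. Pnpla3, a lipid droplet lipase gene, missed the threshold at 2.55, 1.13, 0.38, 0.55 and 1.32 TPM in young and 20.9, 5.04, 8.2, 25.5 and 4.08 TPM in aged libraries (adjusted p = 0.0765), though the groups did not overlap. Pltp, which moves phospholipids between lipoproteins, rose from 63.6, 50.4, 52.2, 51.4 and 113 TPM to 148, 199, 145, 184 and 133 TPM (difference 1.34, SE 0.22, adjusted p = 0.00357), and young 5 stood nearest the aged libraries. Apoa1, the main protein of HDL, stood at 14418 ± 3318 and 9268 ± 2194 TPM (adjusted p = 0.127). Eci3, an enoyl-CoA isomerase gene, rose from 6.7 ± 2.59 to 29.4 ± 10.6 TPM (difference 1.97, adjusted p = 0.000434), and Acad9, which acts in fatty acid oxidation and complex I assembly, by 0.79 (adjusted p = 0.0381), a call that ended in 10 leave-one-out fits (up to 0.113 without young 3). In the oxidation list 5 genes had an unadjusted limma p under 0.05, and Cyp4a10 was lower without passing, at 534 ± 180.0 and 245 ± 66.4 TPM (adjusted p = 0.0962). Noct, the rhythmic phosphatase nocturnin, rose from 5.41, 6.62, 8.24, 9.45 and 7.74 TPM to 14.3, 40.6, 30.7, 48.8 and 36.9 TPM (difference 1.97, adjusted p = 0.0109), while none of 18 clock genes passed or had an unadjusted p under 0.05.

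Hamp, which encodes hepcidin, the hormone that lowers iron uptake and release, was the most abundant gene to rise. It stood at 2045, 3653, 8082, 3299 and 4374 TPM in young and 13049, 9505, 14382, 9325 and 11153 TPM in aged libraries (difference 1.55, SE 0.28, adjusted p = 0.00847). No aged library reached down to young 3, the highest young one. Of 25 iron and metal genes Hamp alone passed, and of 28 acute phase genes likewise. The ferritin genes Fth1 and Ftl1 stood at 3561 ± 459 and 5424 ± 721 TPM in young and at 2845 ± 321 and 7033 ± 976 TPM in aged livers, and neither passed. The call of Hamp ended without young 4, aged 5 and treated 1 together.

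The windows around the starts of A1bg, Hamp and Cyp2d9 are shown because A1bg and Hamp rose to a high level and Cyp2d9 is the sex-biased gene with the largest called fall, and because STAT factors, which bind variants of the letters TTCNNNGAA, are known to act on sex-biased genes and on Hamp. The sequences are RefSeq GRCm38.p6, 5′ to 3′, at chr15:60921221-60921520 (minus strand) for A1bg, chr7:30943980-30944279 (minus strand) for Hamp and chr15:82452127-82452426 (plus strand) for Cyp2d9, with matches to TTCNNNGAA in capitals.
A1bg: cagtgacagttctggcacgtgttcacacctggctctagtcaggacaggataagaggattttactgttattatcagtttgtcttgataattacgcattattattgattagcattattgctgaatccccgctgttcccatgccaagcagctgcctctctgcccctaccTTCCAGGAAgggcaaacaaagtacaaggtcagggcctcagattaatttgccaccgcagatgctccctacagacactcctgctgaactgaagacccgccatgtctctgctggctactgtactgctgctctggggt
Hamp: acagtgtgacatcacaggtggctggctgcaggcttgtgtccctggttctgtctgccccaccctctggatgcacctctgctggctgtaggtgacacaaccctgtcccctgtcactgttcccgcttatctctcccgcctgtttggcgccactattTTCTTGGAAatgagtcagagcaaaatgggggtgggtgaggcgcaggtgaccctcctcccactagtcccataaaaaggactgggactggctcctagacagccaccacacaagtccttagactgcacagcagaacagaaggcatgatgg
Cyp2d9: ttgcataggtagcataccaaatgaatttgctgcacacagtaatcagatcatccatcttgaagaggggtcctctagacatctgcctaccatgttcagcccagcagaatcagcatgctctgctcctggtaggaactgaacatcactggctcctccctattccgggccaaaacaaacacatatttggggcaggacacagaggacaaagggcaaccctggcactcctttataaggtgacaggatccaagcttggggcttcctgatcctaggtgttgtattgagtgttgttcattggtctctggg
The windows of A1bg and Hamp held 1 match each and that of Cyp2d9 none. The motif reads the same on both strands and was the only motif searched. It was found in 2726 of 32851 windows of all genes (8.30%), in 8 of 93 windows of genes called higher (8.60%, windows of 70 genes) and in 1 of 15 windows of genes called lower (6.67%, windows of 12 genes). The share among called genes was thus near that of all promoters, and a match is a description of letters only.

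Some called genes encode signalling proteins and are gathered here from several lists, with Ntrk2 and Sucnr1 chosen after their values were seen. Adcy1, an adenylyl cyclase gene, stood at 0.21, 0.32, 0.26, 0.09 and 0.06 TPM in young and 13.3, 7.12, 7.52, 10.7 and 4.61 TPM in aged libraries (difference 2.95, SE 0.25, adjusted p = 2.55e-06). Ntrk2, the receptor gene for the neurotrophin BDNF, rose from 1.45, 1.61, 0.14, 0.21 and 2.39 TPM to 4.78, 5.33, 9.73, 11.6 and 10.6 TPM (difference 2.18, adjusted p = 0.0103). Adcy1 was near 0 in every young library, and neither gene overlapped. Serpina12, which encodes the adipokine vaspin, rose from 0.47 ± 0.201 to 4.85 ± 1.32 TPM (difference 1.97, adjusted p = 0.000531), and Sucnr1, the succinate receptor gene, from 10 ± 4.27 to 26.6 ± 12.3 TPM (difference 1.32, adjusted p = 0.0301), the latter call ending in 6 of the 15 leave-one-out fits (adjusted p up to 0.0879 without young 3). Igfbp2 and Igfbp5 encode binding proteins of insulin-like growth factors and lie next to each other in the genome. Igfbp2 fell from 401, 564, 580.5, 470.3 and 829.9 TPM to 242, 257, 236, 240.1 and 220.3 TPM (difference −1.21, SE 0.22, adjusted p = 0.00858), and the aged libraries were tightly grouped. Igfbp5 rose from 2.73, 2.4, 2.59, 3.54 and 1.69 TPM to 5.57, 7.76, 7.08, 7.68 and 6.36 TPM (difference 1.15, adjusted p = 0.0263), a call that ended in 7 of the 15 leave-one-out fits (adjusted p up to 0.0746 without young 5). Egfr, the epidermal growth factor receptor gene, stood at 38.6, 34.9, 36.7, 10.3 and 13.8 TPM in young and 7.91, 4.68, 8.3, 6.8 and 13.4 TPM in aged libraries (difference −1.48, SE 0.34, adjusted p = 0.0425). Young 4 and young 5 were low, and the groups overlapped. The Egfr call ended in 10 of the 15 leave-one-out fits (adjusted p up to 0.13 without young 2). Enho, the gene of the peptide hormone adropin, fell from 25.4, 25.4, 30.4, 15.1 and 46.6 TPM to 14.2, 8.94, 9.74, 5.89 and 12.7 TPM (difference −1.35, adjusted p = 0.0334), a call lost in 7 leave-one-out fits (up to 0.0971 without aged 4), and treated livers had 31.4, 25.6, 13.7, 17.8 and 12.8 TPM.

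Among 21 genes of translation initiation and its control by eIF4E, the cap-binding protein, a rise and a fall were called. Eif4ebp3, whose product binds and inhibits eIF4E, fell from 38.8, 51.4, 16.4, 16.7 and 13.9 TPM to 4.17, 2.46, 5.49, 3.27 and 2.05 TPM (difference −2.53, SE 0.37, adjusted p = 0.00157). Eif4e3, a cap-binding relative of eIF4E, rose from 2.41, 2.54, 2.01, 1.78 and 1.3 TPM to 3.45, 3.86, 4.22, 4.01 and 5.45 TPM (difference 0.79, SE 0.16, adjusted p = 0.0186, and 0.0591 without aged 5). In neither gene did the groups overlap. Eif4e itself stood at 14.7 ± 3.96 and 19.4 ± 4.14 TPM (adjusted p = 0.675).

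Further rises, chosen for mention after their values were seen except for Col15a1, Abcc4 and Ugt1a5, concerned genes of varied function. Dct, a melanin synthesis enzyme gene, rose from 6.22, 11.9, 7.99, 13.2 and 4.25 TPM to 46.6, 30.1, 44.9, 44.7 and 35.4 TPM (difference 2.16, SE 0.27, adjusted p = 0.000291). Hmgn3, which binds nucleosomes, rose from 0.45, 0.7, 0.3, 0.96 and 0.56 TPM to 4.37, 4.48, 3.26, 7.71 and 9.08 TPM (difference 2.03, SE 0.23, adjusted p = 8.06e-05). Neither gene overlapped between the groups. Nat8f7, an N-acetyltransferase family gene, rose by 2.62 from 1.09 ± 1 to 11.99 ± 5.96 TPM, the sialyltransferase gene St3gal6 by 1.58 from 3.94 ± 1.42 to 13.5 ± 2.46, and the sulfotransferase gene Sult5a1 by 1.91 from 2.1 ± 0.907 to 10.6 ± 3.42. Col15a1, a basement membrane collagen gene, rose from 5.36, 2.51, 5.95, 3.16 and 5.26 TPM to 11.4, 9.96, 12.7, 16.1 and 13.98 TPM (difference 1.38, SE 0.20, adjusted p = 0.00129) and was the only 1 of 30 collagen and matrix genes to pass, and the only 1 of 22 stellate cell and fibroblast markers. Abcc4, an efflux pump of bile acids and nucleotides, rose by 1.05 (adjusted p = 0.0157) and Ugt1a5, a glucuronosyltransferase gene, by 1.07 (adjusted p = 0.0107). The P450 genes Cyp2g1 and Cyp2j11 rose by 1.58 and 1.69, calls that ended in 6 and 3 of the 15 leave-one-out fits (adjusted p up to 0.0945 and 0.0581 without young 1 and aged 4, respectively). The Sult5a1 call ended in 6 such fits (0.0768) and the Abcc4 call in 2 (0.0562).

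The 19 genes that fell included enzymes, adhesion genes and epithelial genes. Hsd3b3, a steroid dehydrogenase gene, fell from 219.6, 175, 184, 121 and 190.1 TPM to 54.2, 54.9, 72.04, 70.4 and 82.5 TPM (difference −1.39, SE 0.28, adjusted p = 0.0171), and Ces3a, a carboxylesterase gene, from 442, 412, 370.0, 359 and 297 TPM to 137, 177, 177, 207 and 243 TPM (difference −1.01, adjusted p = 0.0109). Neither overlapped, and aged 5 was the highest aged library for both. H2ac19, a histone H2A gene, fell from 222 ± 58.9 to 111 ± 21.2 TPM (difference −0.98, adjusted p = 0.0101). Fermt2, which encodes the integrin activator kindlin-2, fell by 0.80 from 31.9 ± 7.42 to 17.8 ± 3.42 TPM (adjusted p = 0.0301), and Adamts7, a secreted metalloprotease gene, by 0.94 from 3.35 ± 1.28 to 1.22 ± 0.302. Tceal8 fell by 0.94 and Nlrp12, an innate immune regulator gene, by 1.19, from 3.92 ± 3.02 to 0.922 ± 0.276 TPM. The predicted genes Gm33543, Gm3839 and Gm52969 fell by 1.74, 1.27 and 1.02. Calls of Hsd3b3, Fermt2, Tceal8, Gm52969, Gm3839, Nlrp12 and Adamts7 ended in 5 to 10 leave-one-out fits, while those of Cyp2d9, Eif4ebp3, Rdh9, Smim22, Gm33543, Igfbp2, Ces3a and H2ac19 held in all 15.

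Some genes of epithelial cells were among the falls. Prom1, described above as a gene of progenitor and epithelial cells, was called higher, though that call ended in 11 of the 15 leave-one-out fits. Cdh1, which encodes E-cadherin of epithelial junctions, stood at 18.1, 8.61, 10.6, 3.63 and 14.4 TPM in young and 1.8, 0.83, 1.31, 1.81 and 1.6 TPM in aged libraries (difference −2.16, SE 0.47, adjusted p = 0.0395). The groups did not overlap, and treated 1 was at 11.4 TPM while the other treated libraries lay at 0.9 to 1.27. Smim22 fell from 19.9, 24.8, 16.2, 36.1 and 19.6 TPM to 8.56, 7.42, 10.6, 3.6 and 2.8 TPM (difference −1.75, adjusted p = 0.00909) and Ociad2 from 7.93, 9.18, 11.3, 10.9 and 11.1 TPM to 0.54, 4.98, 2.2, 1.66 and 4.11 TPM (difference −1.73, adjusted p = 0.0425). All 3 stand in the list of 13 tested bile duct markers, where they were placed with their fall already known, so their count is no evidence about bile ducts. Of the other 10 none passed, and the list median was −0.16. Prom1 was not in this list. Krt19, a keratin of bile duct cells, stood at 1.95, 1.72, 2.21, 1.43 and 5.76 TPM in young and 2.52, 2.47, 1.41, 1.27 and 0.92 TPM in aged libraries (adjusted p = 0.917). The Cdh1 and Ociad2 calls ended in 11 and 10 of the 15 leave-one-out fits (adjusted p up to 0.111 and 0.113 without young 1 and young 3, respectively).

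**Figure D4:**
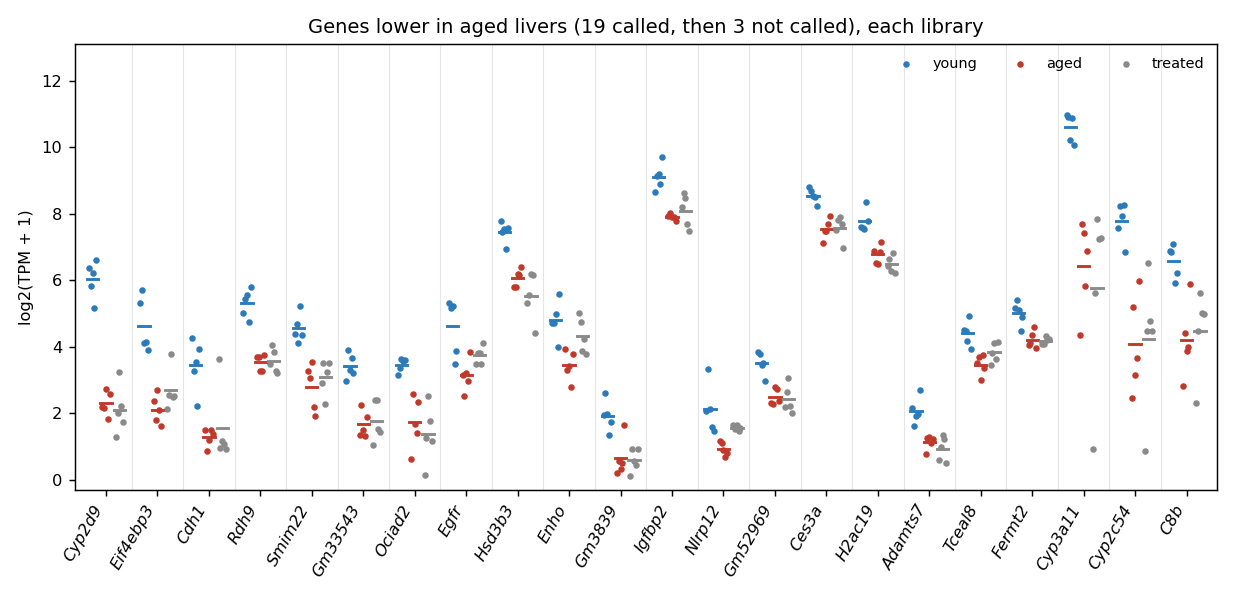
Levels of the 19 genes called lower in aged livers, followed by Cyp3a11, Cyp2c54 and C8b, which did not overlap between young and aged livers but were not called, on the log2(TPM + 1) scale. Points are libraries (blue young, red aged, grey treated) and bars are means of 5. For the last 3 genes the aged and treated libraries are widely spread, with treated 1 near the bottom of the scale for Cyp3a11 and Cyp2c54.

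Some large falls did not pass, and in these genes the aged and treated libraries varied widely. Cyp2c54, a P450 gene, stood at 188, 298, 242, 307 and 114 TPM in young and 4.45, 35.2, 7.88, 11.7 and 61.3 TPM in aged libraries (difference −3.68, adjusted p = 0.0912, and 0.0249 in the fit of young and aged libraries alone). C8b, a chain of the complement membrane attack complex, stood at 117, 114, 134, 59.8 and 73.2 TPM in young and 6.09, 20.3, 13.6, 14.99 and 58.3 TPM in aged libraries (difference −2.39, adjusted p = 0.0967, and 0.0423 in that fit). Its partner C8a was at 99.4, 132, 191, 75.2 and 55.4 TPM in young and 5.27, 19.9, 9.61, 15.2 and 71.5 TPM in aged libraries (adjusted p = 0.144), where aged 5 overlapped the young libraries. Mug1, a murine plasma proteinase inhibitor gene chosen here after its values were seen, was at 617.1 ± 154.1 and 209.2 ± 85.0 TPM (adjusted p = 0.0674, and 0.0122 in that fit). Treated 1 had Cyp2c54 at 0.82 TPM and C8b at 3.92 TPM. The fit of young and aged libraries alone called 149 genes, of which 105 were among the 132. It added 44 genes, 37 higher and 7 lower, 14 of them immunoglobulin variable segments, and lost 27. None of 41 complement and coagulation genes passed in the fit of all groups, with a median of −0.06 and 6 at an unadjusted p under 0.05.

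Hepatocyte genes were slightly lower in mean, with no call. None of 22 hepatocyte markers passed, 20 were lower in mean and 5 had an unadjusted limma p under 0.05, with a median of −0.20. Alb stood at 76170.3 ± 14708 and 63674 ± 12853 TPM, Ttr at 7698 ± 1133 and 6513 ± 866, and the nuclear receptor gene Hnf4a at 175 ± 67.3 and 145 ± 29.3 (SD, n = 5). Of 30 pericentral genes, expressed around the central vein, 27 were lower in mean and 6 did not overlap, all lower, with a median of −0.22, none past the threshold and 10 at an unadjusted limma p under 0.05. Slc1a2, a glutamate transporter gene of that zone, stood at 39.7, 46.5, 43.7, 43.9 and 38.5 TPM in young and 31.6, 33.4, 22.7, 27.8 and 29.6 TPM in aged libraries (difference −0.54, adjusted p = 0.0686). Cyp1a2 stood at 359.9, 299, 390.4, 645 and 591 TPM in young and 229.6, 257, 273, 254 and 251 TPM in aged libraries (adjusted p = 0.073), and Cyp2e1 at 3063, 4676, 5852, 3652 and 4339 TPM in young and 1439, 2750.3, 2372, 2086 and 2824 TPM in aged libraries (adjusted p = 0.121). None of the 3 genes overlapped. Of 25 periportal genes, Serpina12 rose, Cdh1 fell and the median was −0.20. Of 53 cytochrome P450 genes in the phase I list 6 rose, 1 fell and the median was −0.21. Over all 69 tested P450 genes 7 rose, 1 fell, 34 were higher in mean and the median was −0.07. Of 31 bile acid genes Abcc4 alone passed, with 24 lower in mean and a median of −0.22, and Nr0b2, which encodes the bile acid-induced repressor SHP, stood at 65.4, 37.03, 80.96, 44.7 and 89.2 TPM in young and 36.02, 24.2, 31.1, 21.4 and 32.7 TPM in aged libraries (adjusted p = 0.0582). The 19 glucocorticoid response genes had the lowest median of any list, −0.37, with 14 lower in mean, none called and 6 at an unadjusted limma p under 0.05. Tsc22d3, a classical glucocorticoid target, stood at 96.7, 84.8, 102, 126 and 104 TPM in young and 54.4, 45.6, 45.3, 93.02 and 57.6 TPM in aged libraries (adjusted p = 0.359).

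**Figure D5:**
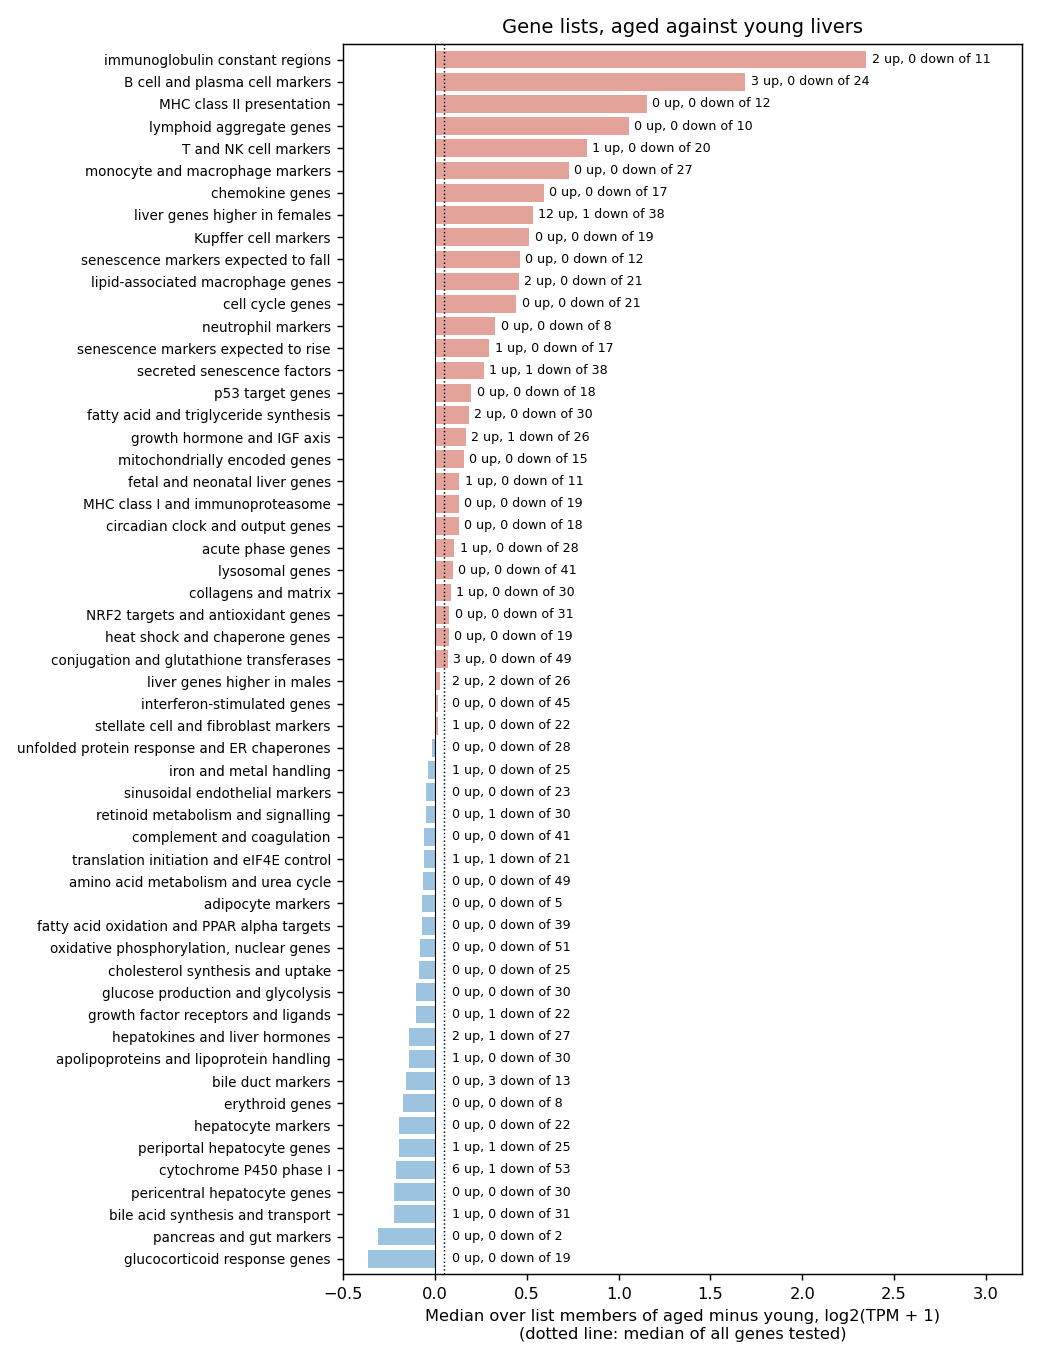
Bars give the median aged minus young difference, on the log2(TPM + 1) scale, over the tested members of each of 55 gene lists, and the text beside each bar gives how many members were called higher and lower. The dotted line is the median of all 12168 genes, 0.05. Antibody, B cell and MHC class II lists lie at the top with few calls, and most metabolic lists lie near the line.

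Lists of core metabolism and stress held no called gene, and each median below is followed by the number of genes at an unadjusted limma p under 0.05. None passed among 51 nuclear genes of oxidative phosphorylation (median −0.08, 2 genes), 15 mitochondrially encoded genes (0.15, none), 49 genes of amino acid metabolism and the urea cycle (−0.07, 7), 30 of glucose metabolism (−0.10, 1) and 25 of cholesterol synthesis and uptake (−0.09, 2). The same held for 28 genes of the unfolded protein response (−0.02, 1), 19 heat shock genes (0.07, 2), 31 NRF2 targets (0.08, 7) and 41 lysosomal genes (0.09, 3). Nor did any pass of 19 MHC class I genes (0.13, 1), 23 sinusoidal endothelial markers (−0.05, 1), 8 erythroid genes (−0.17, none), 5 adipocyte markers (−0.07, none) and 2 pancreas and gut markers (−0.31, none). Likewise 10 lymphoid aggregate genes (1.05, 3) and 12 markers expected to fall with senescence (0.46, 1) held no call, and without aged 5 their medians were 0.54 and 0.05. Without aged 5 the median of the MHC class I list was 0.02 and that of the lysosomal list 0.03, and without young 4 they were 0.045 and −0.05. Of the remaining lists, 38 secreted senescence factors held Igfbp5 and Igfbp2 (median 0.27), 49 conjugation genes had 3 rises (0.07), 11 fetal liver genes had Cyp3a16 (0.13), 30 retinoid genes had Rdh9 (−0.05), 27 hepatokine genes had 2 rises and 1 fall (−0.14) and 22 growth factor genes had Egfr (−0.10). In all, 41 of the 132 called genes stood in a list and 91 in none.

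Called genes often lay near each other. Of the 127 called genes placed in GENCODE M21, 49 (38.6%) had another called gene within 500 kb, and 898 of 11665 other tested genes (7.7%) had a called gene that near. These 49 genes formed 15 clusters, of which 12 held genes called in 1 direction only. The largest were part of the Mup cluster with 7 genes, the Cyp3a cluster with 6 and the heavy-chain variable segments with 6, and copies in such clusters share reads. Within the Cyp3a cluster the pseudogene Selenok-ps7 went from 0, 0, 0.74, 0.8 and 0 TPM to 10.52, 9.34, 13.6, 17.7 and 12.4 TPM (difference 3.42, adjusted p = 2.32e-06). Another cluster held C130026I21Rik, A530040E14Rik, Gm6264 and Gm7609, which rose by 1.32 to 1.96. The C130026I21Rik call, which had 17.7 TPM in aged 5 against 1.53 to 3.75 in aged 1 to 4, ended in 10 leave-one-out fits (up to 0.113 without young 5). In 3 clusters neighbours moved in opposite directions, Igfbp2 and Igfbp5, the dehydrogenase genes Rdh9 (−1.77) and Sdr9c7 (1.05), and Hsd3b3 (−1.39) and Hao2 (1.09). The Sdr9c7 call ended in 11 leave-one-out fits (up to 0.13 without aged 4), and that of Hao2 in 6. Dct lay near Abcc4 and Hamp near Fxyd5, a sodium pump regulator gene that rose by 1.29 with a call lost in 13 leave-one-out fits (up to 0.128 without young 1).

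For every called gene the treated mean lay on the aged side of the young mean. This does not say how near the treated mean lay to the aged mean. All 113 genes that rose had a treated mean above the young mean, and all 19 that fell had a treated mean below it. Treated against young livers gave 354 called genes (2.91%), among them 90 of the 113 and 15 of the 19. The genes were called against the same young libraries, so none of these counts is independent of the aged comparison. Treated against aged livers gave 1 called gene (0.00822%), the predicted gene Gm42605, which was none of the 132. It was listed at 0 in the aged libraries and in every young library except young 3 (0.46 TPM), and stood at 8.86, 16.7, 17.0, 14.4 and 16.6 TPM in treated 1 to 5. Sult2a3 stood at 60.97, 58.7, 75.2, 63.5 and 72.9 TPM, Adcy1 at 11.9, 13.1, 6.7, 6.18 and 7.03 TPM and Cyp2d9 at 1.42, 3.04, 8.46, 3.63 and 2.34 TPM there, all within or near the aged ranges. Igfbp5 was lower in most treated than in aged libraries, at 3.68, 4.06, 3.61, 7.94 and 1.76 TPM, with treated 4 as high as the aged ones and no call between these groups.

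Some calls of named genes depended on the processing. Quantile normalization ended those of Mup8, Mup-ps12, Mup-ps13, C130026I21Rik, Sult5a1, Cyp2j11, Scd1, Cd207, Sult2a-ps1, Fitm1, Cyp2g1, Sucnr1, Prom1, Gadd45a, Igfbp5, Hao2, Sdr9c7, Abcc4, Cyp2b10, Zap70 and Acad9. Median-ratio scaling ended those of Cyp3a41b, Mup8, Mup9, Mup-ps12, Mup-ps13, Sult5a1, Cd207, Fitm1, Cyp2g1, Sucnr1, Fxyd5, Prom1, Gadd45a, Igfbp5, Hao2, Ugt1a5, Cyp2b10, Zap70, Acad9, Tceal8 and H2ac19. The fit of young and aged libraries alone ended, beside the Cyp3a41 calls, those of Mup8, C130026I21Rik, Scd1, Sucnr1, Hao2, Sdr9c7, Cyp2b10, Eif4e3, Acad9, Fermt2, Tceal8, Adamts7, Nlrp12, Gm3839 and Egfr. With no limit on low values, 80 of the 132 calls were kept. Other settings ended calls as well. Those lost at a pseudocount of 5 TPM included Trem2, Jchain, Mup1, Cdh1 and Egfr. Those lost with the replicate number as a block included Jchain, Scd1, Cyp3a41b and Eif4e3. Without young 4, aged 5 and treated 1 together, the lost calls included Noct and Cyp2j11.

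Libraries varied more within the young than within the aged group. The median over genes of the SD of log2(TPM + 1) was 0.383 in young and 0.264 in aged livers, and the SD was higher in aged livers for 26.7% of genes. Without young 4 the young median was 0.265 and the share 48.7%, so the difference in spread rested on that library.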

How the data were processed

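RNA from mouse liver was extracted with TRIzol and treated with DNase, and libraries followed standard Illumina protocols, per the labels' protocols. The deposited values are TPM per gene, which the authors computed from the reads; fastp, HISAT and RSEM and the genome build GRCm39 are named in the submitters' processing notes, which give no order of use. TPM sums to a constant, so a rise of abundant genes lowers the share of all others, and near-identical genes share reads by estimate. The table was deposited with 3 columns of group means, which were left out. Depth is not given in the sources used here, so no counting interval can be given.

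Genes averaging 1 TPM or more across 15 libraries were tested as log2(TPM + 1) with limma 3.58.1 in R 4.3.3 (1 model for all 3 groups, mean-variance trend, robust variance), and p-values were adjusted by Benjamini-Hochberg over all 12168 genes. All adjusted p-values of genes come from this model unless another fit is named. The steps were tested on simulated data. Single values per library were compared by two-sided exact permutation tests. Gene types and neighbours came from GENCODE M21, and promoter windows from RefSeq, both on GRCm38.p6, with 82 of 132 called genes matched to a window.

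The 55 gene lists, the comparison and the rule for named genes were chosen with earlier results of these data known. The rule names Cdkn1a, Cdkn2a, Glb1 and Lmnb1, the 16 largest non-overlapping rises and falls reaching 5 TPM (without predicted genes, pseudogenes and variable segments), every other fall, up to 4 members of each list by p, and Alb, Ttr, Apoa1 and Hnf4a. Named outside it, after their values were seen, were Acad9, C130026I21Rik, A530040E14Rik, Cd207, Cd79a, Cyp2b10, Cyp2b13, Cyp2g1, Cyp2j11, Cyp3a13, Cyp3a25, Dct, Eci3, Fitm1, Fxyd5, Gadd45a, Gm42605, Gm6264, Gm7609, Hao2, Hmgn3, Igha, Ighg1, Mug1, Nat8f7, Noct, Ntrk2, Prom1, Raet1e, Sdr9c7, Selenok-ps7, Serpinb1a, St3gal6, Sucnr1, Sult5a1, the further Mup and Sult2a genes named, and the variable segments. Alternatives covered the pseudocount, the filter, 2 scalings, library weights, a fit without trend and robust variance, young and aged libraries alone, the replicate number as a block, the removal of young 4, aged 5 and treated 1, and leave-one-out fits. A result for 1 gene is not reported here.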

Additional observations from a re-analysis of the deposited data

Results flagged for a closer look

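Dixon's gap test at the 95% level was applied to log2(TPM + 1) within the young and the aged groups for the genes named in the report. Of 255 gene and group pairs, 16 held a library that stood apart from the other 4 of its group (6.27%), where chance gives about 5%. In young 5, Pltp was high at 112.57 TPM, Krt19 at 5.76, Cyp2b13 at 458.74 and Apoa1 at 20148.3. In aged 5, Cdkn2a was high at 14.59 TPM, Cd207 at 20.14, Lyz2 at 561.27 and Gm3839 at 2.14. In young 4, Mup1 was high at 4.93 TPM and Mug1 low at 343.68. The remaining values were Acad9 at 16.26 TPM and Ighg1 at 1.17 TPM in young 3, Gm42605 at 0.46 TPM in young 3 with the other young libraries listed at 0, Igkv3-2 at 0.85 TPM in young 2, Igkv4-68, listed at 0 in young 1, and Sult2a5 at 9.12 TPM in aged 1.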

How the results depend on the processing

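Counts of calls moved most. Against 132 called genes (113 higher, 19 lower), a filter at 5 TPM gave 76 (62 higher), with 224 non-overlapping genes in place of 411. Library weights gave 244 calls, 79 of them lower. Falls numbered 12 with no filter, 41 after quantile normalization, 33 with median-ratio scaling and 56 without young 4, aged 5 and treated 1. The leave-one-out fits gave 79 (without young 3) to 163 (without treated 1) calls, 70 to 138 higher and 8 (without young 1) to 50 (without young 4) lower. Falls numbered 9 without young 3 and 10 without aged 1, aged 2 or aged 3. No called gene changed sign in any alternative, and 57 kept their call in every alternative that tested them. The cause of these shifts was not tested. A replicate block gave 116 calls (96 higher, 20 lower), 99 of them among the 132. Deviations of same-numbered young and aged libraries had correlations of −0.13 to 0.144. The highest correlations with another number were 0.11 to 0.27. Treated libraries were not part of this check, which cannot exclude pairing or a shared batch. Scarce genes depend on the pseudocount, with 186 calls at 0.1 TPM and 97 at 5 TPM. Depth is unknown, so a value listed at 0 sets no limit.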
